A study of Bos taurus with 27 samples.

Results

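The genes described here are 42 genes of glutathione metabolism and antioxidant defence, given as a list of symbols that covers 9 roles, from glutathione S-transferases to methionine sulfoxide reductases. The count table held 41 of them among 32637 genes, with no row named GSTM1, and 39 were among the 12310 genes retained because they reached an abundance of 1 in at least 12 pools. Abundance is given as CPM, the count of a gene scaled to the same library total in every pool. RNA was taken from 27 pools of 2 bovine blastocysts, each expanding or expanded and of the best quality grade. They were produced in vitro with semen of 1 bull, from abattoir oocytes matured in medium with follicular fluid of preovulatory follicles that were of greater or lesser maturity. The labels do not tell which fluid or which fertilization replicate a pool belonged to, so maturity was not compared, and the pools are treated as 1 set of samples without groups. All pools share the same fertilization and culture procedure, and a pool mixes both embryos and all their cell types. The total count per pool was between 10517606 and 44253564, with a median of 22293600, so that 3 counts corresponded to 0.0678 to 0.285 CPM. Libraries were made from the 3′ ends of transcripts, so CPM compares tags and was not divided by transcript length. In such whole-embryo pools, fewer cells of a type and less RNA per cell cannot be told apart.

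Glutathione is a small thiol made by glutamate-cysteine ligase and glutathione synthetase, spent by glutathione peroxidases and transferases, and regenerated by glutathione reductase. Peroxiredoxins remove peroxides in parallel and are recharged by thioredoxin and thioredoxin reductase, while superoxide dismutases and catalase act on superoxide and hydrogen peroxide directly. The transcription factor NRF2, encoded by NFE2L2 and held in check by KEAP1, induces many of these genes under oxidative stress, to which embryos cultured in vitro are known to be sensitive.

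The blastocyst label was checked first. All 10 trophectoderm markers were retained, with KRT8 at 10633 to 26270 CPM and CDX2, the trophectoderm transcription factor, at 1.97 to 9.42 CPM. Of the epiblast markers, 6 of 8 were retained, with NANOG at 15.3 to 133 CPM and FGF4 not retained, at 0 in 17 pools. Of the hypoblast markers, 5 of 8 were retained, with GATA6 at 19.5 to 301 CPM, but SOX17 was at 0 in 14 pools and FOXA2 in 19 pools.

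Summed over the listed genes, abundance was 10127 CPM in the lowest pool, 12267 CPM at the median and 15041 CPM in the highest, or 1.23% of counts at the median. Peroxiredoxins with sulfiredoxin made up 73.3% of that sum at the median, and between 69.0% and 75.9% in single pools. The thioredoxin system held 7.87%, the glutathione peroxidases 7.52% and the dismutases with catalase 4.84% at the median. The enzymes that make and recycle glutathione held 2.33%, the microsomal glutathione transferases 1.59%, the NRF2 axis 1.42%, the other glutathione S-transferases 0.769% and the methionine sulfoxide reductases 0.142%. The plot of CPM by gene shows this order together with the spread over pools.

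**Figure D1:**
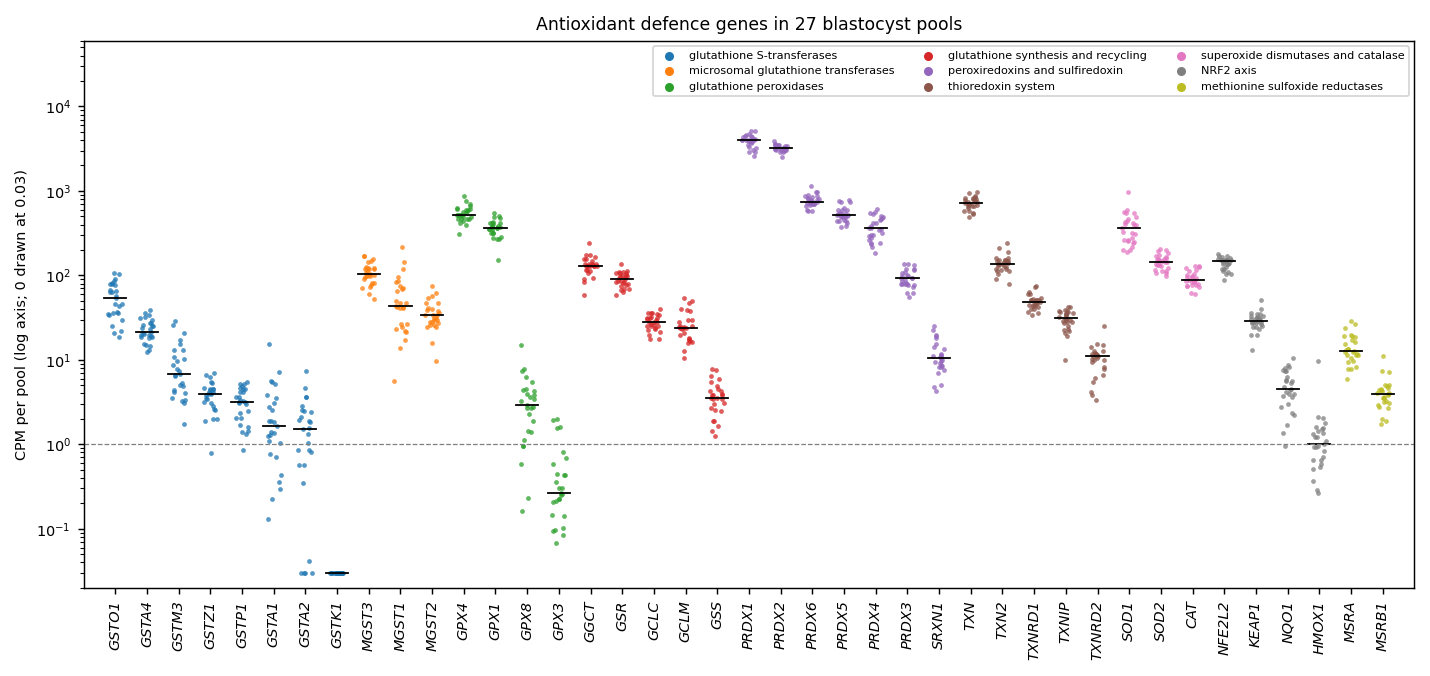
Abundance of the 41 genes in the table, in CPM on a log axis, with 1 point per blastocyst pool and a black bar at the median, grouped and coloured by role. The dashed line marks 1 CPM, and zeros are drawn at 0.03. PRDX1 and PRDX2 sit above all other members, and GSTK1 has no count in any pool.

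The peroxiredoxins are thiol peroxidases that reduce hydrogen peroxide and other peroxides. PRDX1, a cytosolic form, was the most abundant member at 2561, 4006 and 5186 CPM in the lowest, median and highest pool. PRDX2, also cytosolic, was at 2555, 3221 and 3851 CPM. PRDX1 exceeded PRDX2 in 23 of 27 pools, by a median of 1.26 times. PRDX6, which uses glutathione rather than thioredoxin, was at 575, 748 and 1144 CPM. PRDX5, found in several compartments, was at 377, 515 and 782 CPM. PRDX4, the form of the endoplasmic reticulum, was at 186, 359 and 619 CPM. These 3 genes overlapped, since PRDX6 exceeded PRDX5 in 23 pools and PRDX5 exceeded PRDX4 in 20 pools. PRDX3, the mitochondrial form, was at 56.2, 93.4 and 137 CPM and was below PRDX4 in all 27 pools. SRXN1, the sulfiredoxin that repairs overoxidized peroxiredoxins, was at 4.28, 10.4 and 25.5 CPM.

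In the thioredoxin system, cytosolic and mitochondrial forms were ordered alike. TXN, cytosolic thioredoxin, was at 489, 715 and 965 CPM, and TXN2, its mitochondrial counterpart, at 79.8, 138 and 242 CPM. TXNRD1, the cytosolic reductase, was at 34.1, 48.7 and 75.5 CPM, and the mitochondrial TXNRD2 at 3.39, 10.99 and 25.4 CPM. The carrier exceeded its reductase in all 27 pools, by a median of 14.5 times for TXN over TXNRD1 and 13.7 times for TXN2 over TXNRD2. TXNIP, a protein that binds and inhibits thioredoxin, was at 9.98, 30.9 and 42.8 CPM.

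Among glutathione peroxidases, 2 selenoenzymes carried nearly all of the abundance. GPX4, which reduces lipid hydroperoxides, was at 310.1, 522 and 873 CPM. GPX1, the general cytosolic enzyme, was at 152, 365 and 548 CPM. GPX4 was the higher of the pair in 24 of 27 pools. GPX8, an endoplasmic reticulum member, was at 0.160, 2.94 and 14.9 CPM, the lowest of these being 3 counts. GPX3, the secreted plasma form, was not retained, at 0.0687, 0.265 and 1.97 CPM, the median pool holding 7 counts.

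For the making and recycling of glutathione, GGCT and GSR led. GGCT, which releases glutamyl residues in glutathione turnover, was at 59.3, 130.5 and 244 CPM. GSR, glutathione reductase, was at 58.3, 89.9 and 136 CPM. GCLC, the catalytic subunit of the rate-limiting ligase, was at 17.4, 28.2 and 39.5 CPM. GCLM, the modifier subunit, was at 10.4, 24.0 and 53.6 CPM and did not separate from GCLC, being lower in 17 of 27 pools. GSS, which adds glycine to complete the tripeptide, was at 1.25, 3.53 and 7.74 CPM and was below GCLM in all 27 pools.

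SOD1, the copper-zinc superoxide dismutase, was at 191, 364 and 965 CPM. SOD2, the mitochondrial manganese enzyme, was at 97.0, 146 and 205 CPM and was below SOD1 in all 27 pools. CAT, peroxisomal catalase, was at 59.9, 87.2 and 129 CPM and was below SOD2 in 25 pools. The methionine sulfoxide reductases, which repair oxidized methionine, were lower. MSRA was at 6.01, 12.7 and 29.1 CPM and MSRB1 at 1.73, 3.93 and 11.2 CPM.

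The glutathione S-transferases conjugate glutathione to electrophiles. GSTO1 was the highest of them at 18.4, 53.3 and 108 CPM, followed by GSTA4, which acts on products of lipid peroxidation, at 12.4, 21.5 and 38.9 CPM. GSTM3 was at 1.73, 6.75 and 29.2 CPM. GSTO1 exceeded GSTA4 in 24 pools and GSTA4 exceeded GSTM3 in 25 pools. GSTZ1 was at 0.781, 3.98 and 7.05 CPM. GSTP1 was at 0.860, 3.21 and 5.49 CPM. These overlapped, as GSTZ1 was the higher in 19 of 27 pools. GSTK1, a mitochondrial and peroxisomal form, had 0 counts in all 27 pools, which allows a level of up to 0.0678 CPM in the deepest pool and 0.285 CPM in the shallowest, counting error only.

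The alpha class lies together on chromosome 23 of ARS-UCD2.0, with GSTA2 at 25074826 to 25088569, GSTA1 at 25122370 to 25137232 and GSTA4 at 25209830 to 25223904. GSTA1 was at 0.129, 1.63 and 15.5 CPM, the highest value being pool 41 and the next 7.09 CPM in pool 36. GSTA2 was at 0, 1.51 and 7.43 CPM, with 4 pools at 0 and the highest value in pool 9. GSTA1 exceeded GSTA2 in 18 of 27 pools, and their levels ran weakly together (Spearman's rho = 0.39, permutation p = 0.0415, adjusted p = 0.924 over all retained genes). GSTA1 and GSTA2 are close paralogs, so reads may have been split between them, and their values are uncertain.

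The microsomal transferases are membrane enzymes of a separate family. MGST3 was at 52.8, 104 and 169 CPM, MGST2 at 9.79, 33.5 and 75.6 CPM, and MGST1 at 5.61, 43.9 and 219 CPM. MGST1 therefore covered a 39.1-fold range, with pool 28 lowest and pool 9 highest. The next values were 13.7 CPM at the low end and 143 CPM at the high end.

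In the NRF2 axis, NFE2L2 was at 88.1, 148 and 180.5 CPM and KEAP1, its inhibitor, at 13.1, 28.9 and 50.9 CPM. NFE2L2 was the higher in all 27 pools, by a median of 5.11 times. NQO1, a quinone reductase that NRF2 induces, was at 0.951, 4.55 and 10.6 CPM. HMOX1, heme oxygenase 1, another inducible enzyme, was at 0.267, 1.01 and 9.78 CPM. Its highest value came from pool 9, and the next was 2.12 CPM in pool 19.

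Of the 61 genes of a wider pathway list that are not members, 60 were in the table and 50 were retained. FTH1, the ferritin heavy chain, was at 5935, 7470.0 and 9050.3 CPM, and GLRX, a glutaredoxin that uses glutathione, at 1371, 1871 and 2493 CPM. SLC7A11, the cystine importer that feeds glutathione synthesis, was not retained and had a median of 0 CPM, with 2.85 CPM in the highest pool.

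The spread of each gene over pools was then set against that of genes of like abundance, as the ratio of its gene-wise dispersion to the edgeR trend. The ratio was above 1 for 18 of 39 members, or 46.2%, and for 28.5% of all retained genes, and the median ratio was 0.951 for members and 0.663 for all. No test was made of the list. The 5 members highest above the trend were MGST1 at 6.95, SOD1 at 3.36, GSTA2 at 3.07, GSTO1 at 2.95 and GSTM3 at 2.33. Of these 5, 4 are glutathione transferases, but so are GSTZ1 and GSTP1 among the 5 lowest. The biological coefficient of variation was 72.0% for MGST1 and 40.3% for SOD1. GSTM3 was highest in pool 23 at 29.2 CPM and pool 41 at 25.8 CPM, followed by pool 1 at 20.9 CPM and pool 28 at 17.4 CPM.

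The 5 members lowest against the trend were PRDX2 at 0.221, GCLC at 0.411, TXNRD1 at 0.417, GSTZ1 at 0.423 and GSTP1 at 0.432. PRDX2 varied least, with a biological coefficient of variation of 9.88% and a 1.51-fold range over 27 pools, whereas PRDX1, of like abundance, had 18.1% and a 2.02-fold range. NFE2L2 also lay below the trend at 0.437, and KEAP1 at 0.627. The plot of spread against abundance places each member relative to the trend.

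**Figure D2:**
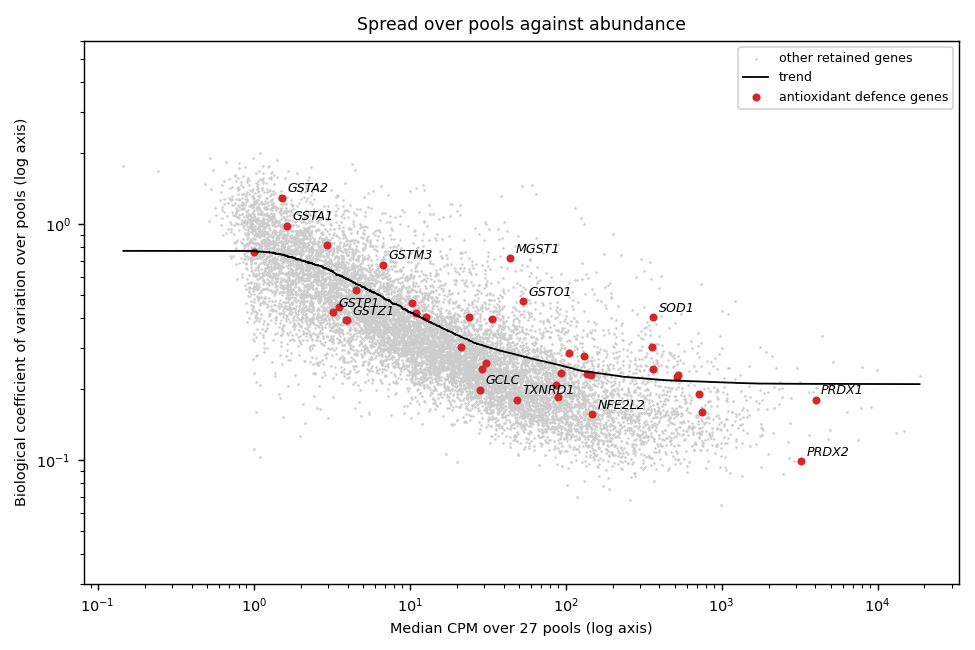
Biological coefficient of variation over 27 pools against the median CPM, both on log axes, for the retained members in red and all other retained genes in grey. The black line is a running median of the trend for all retained genes. MGST1 and SOD1 lie well above the line and PRDX2 well below it.

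Single pools weighed on several members. Pool 9 had the highest value of 11 of the 39 retained members, including SOD1, MGST1, MGST2, GPX4, PRDX6 and HMOX1, and of 907 of all 12310 retained genes, or 7.37%. Pool 28, the shallowest library, had the lowest value of 8 members, including MGST1, MGST2, MGST3, PRDX4, TXNIP and KEAP1, and of 6.94% of all retained genes. Pool 9 also had the lowest summed hypoblast markers, at 61.0 CPM against a median of 285 CPM, and the highest summed erythroid markers, at 20.8 CPM against a median of 7.51 CPM. Whether these have a part in its values was not tested.

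Members were also compared with each other over the 27 pools. Spearman's rho of the 741 pairs of retained members had a median of 0.05, and 3.64% of pairs were above 0.5, against a median of 0.03 and 1.87% of pairs of all retained genes. The strongest pairs were chosen from all of these by size. PRDX1 and SOD1 had a rho of 0.70 (permutation p = 9e-05, adjusted p = 0.0112 over all retained genes) and a Pearson's r of 0.73 (permutation p = 5e-05), or 0.68 without the 2 pools farthest from the median of PRDX1. PRDX6 and SOD1 had a rho of 0.67 (permutation p = 0.00015, adjusted p = 0.0319) and r of 0.70 (permutation p = 4e-05). MGST1 and PRDX4 had a rho of 0.67 (permutation p = 0.00027, adjusted p = 0.0313) and r of 0.71 (permutation p = 4e-05). PRDX3 and CAT, of mitochondria and peroxisomes, had a rho of 0.67 (permutation p = 0.00019, adjusted p = 0.0297) and r of 0.69 (permutation p = 8e-05). GSTA4 and PRDX6, next in size, had a rho of 0.66 (permutation p = 0.00021) and did not pass over all genes (adjusted p = 0.287). The most negative of the named pairs, GSS with TXN2, had a rho of -0.65 (permutation p = 0.00035), which did not pass over all genes (adjusted p = 0.115).

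Partners in 1 enzyme or cycle did not vary together in a way that passed the test. GCLC and GCLM, the subunits of 1 ligase, had a rho of -0.09 (permutation p = 0.659, adjusted p = 0.952). TXN and TXNRD1 also had a rho of -0.09 (permutation p = 0.661, adjusted p = 0.939). PRDX1 and SRXN1 had a rho of 0.21 (permutation p = 0.301, adjusted p = 0.707), and NFE2L2 and KEAP1 one of -0.11 (permutation p = 0.573, adjusted p = 0.969). With 27 pools, weak relations could not be told from none. In all, 31 pairs were computed singly, all with adjustment over the 12309 other retained genes.

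**Figure D3:**
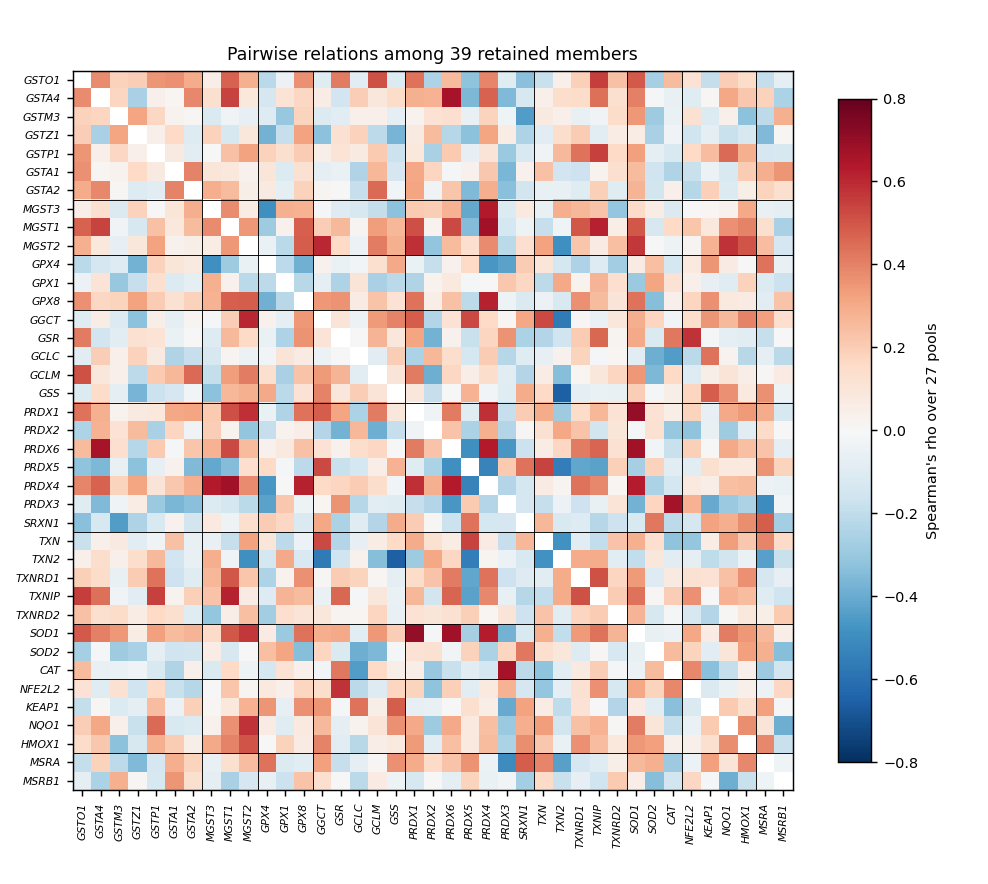
Spearman's rho of log2(CPM + 1) over 27 pools for each pair of the 39 retained members, from blue for negative to red for positive, in blocks by role. A red patch joins SOD1 with PRDX1, PRDX6, PRDX4 and MGST1, while the blocks of most roles are pale.

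Which members varied with the mRNA of NRF2 was asked by fitting the slope of every retained gene on log2(CPM + 1) of NFE2L2. NRF2 protein and its activity were not measured. A slope is the log2 change of a gene per unit of the measure, that is per doubling at all but low levels. Across all genes, 60 of 12309 passed an adjusted p of 0.05, or 0.487%, and none of the 38 members tested did. At an unadjusted p under 0.05 there were 8 members, and 16.8% of all genes tested. GSR came nearest, with a slope of 0.64 ± 0.18 (SE, 27 pools, edgeR adjusted p = 0.0848) and a rho of 0.58, and passed with DESeq2 (adjusted p = 0.0410). With DESeq2, 307 genes passed in all and GSR was the only member among them. Of 15 members that are known targets of NRF2, 7 had a positive slope and 0 passed, while 51.8% of all genes had a positive slope. NQO1, SRXN1, GCLM, GCLC and TXNRD1 had rho with NFE2L2 of -0.06, -0.14, -0.10, -0.21 and 0.12, none past the test.

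TXNRD1, a textbook target of NRF2, was used in the same way. With it, 2 of 12309 genes passed, or 0.0162%, and 0 of 38 members, by edgeR as by DESeq2, with 3 members and 6.52% of all genes at an unadjusted p under 0.05.

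Interferon tau, the pregnancy recognition signal secreted by ruminant trophectoderm, varied widely, and SOD1 followed it most closely among members. Summed interferon tau transcripts were at 7.21 CPM in pool 36, 41.9 CPM at the median, 265 CPM in pool 14 and 597 CPM in pool 9, the highest. In the fit, 282 of 12308 genes passed, or 2.29%, and 4 of 39 members, or 10.3%, all with positive slopes. SOD1 had a slope of 0.30 ± 0.04 (SE, 27 pools, edgeR adjusted p = 0.000157), 1.23-fold per unit, with a rho of 0.74 (permutation p = 2e-05) and r of 0.77 (permutation p = 1e-05), also without the 2 farthest pools. PRDX6 had a slope of 0.11 ± 0.02 (edgeR adjusted p = 0.00518), with a rho of 0.70 (permutation p = 8e-05) and r of 0.75 (permutation p = 2e-05), or 0.70 without them. MGST1 had a slope of 0.41 ± 0.10 (edgeR adjusted p = 0.0277) and a rho of 0.40 (permutation p = 0.0399) and r of 0.52 (permutation p = 0.00513). HMOX1 had a slope of 0.39 ± 0.10 (edgeR adjusted p = 0.0400), but its rho was 0.28 (permutation p = 0.158) and r 0.49 (permutation p = 0.00882), or 0.24 without them. In all, 16 relations of members with measures were computed. MGST2 was just short of the threshold, at 0.20 ± 0.06 (edgeR adjusted p = 0.0688).

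Pool 9 was highest in both interferon tau and these 4 genes. Without it, 41 genes passed in all and SOD1 was the only member among them, at 0.26 ± 0.05 (edgeR adjusted p = 0.0162), while PRDX6 had a slope of 0.09 (edgeR adjusted p = 0.0951) and MGST1 one of 0.33 (edgeR adjusted p = 0.275), and HMOX1 dropped to 0.09 (edgeR adjusted p = 0.824). Without pool 28, HMOX1 had a slope of 0.37 (edgeR adjusted p = 0.0672). SOD1 passed under all 8 alternative settings, with slopes from 0.25 to 0.31. Relations were also computed among 18 pools with 18.9 to 197 CPM of Y-linked transcripts and 9 pools with 0.430 to 1.65 CPM. The data separate these pools, which are not groups of the study. This split does not stand for a batch, and the labels give neither batch nor embryo sex. SOD1 had a rho of 0.69 with interferon tau in the 18 pools (permutation p = 0.00226, adjusted p = 0.0113 over 20 such relations). In the 9 pools its rho was 0.50 (exact permutation p = 0.178, adjusted p = 0.324). PRDX6 had a rho of 0.74 in the 18 pools (permutation p = 0.00075, adjusted p = 0.0050) and 0.33 in the 9 (exact permutation p = 0.385, adjusted p = 0.513). MGST1 had one of 0.37 in the 18 (permutation p = 0.130, adjusted p = 0.266) and -0.10 in the 9 (exact permutation p = 0.810, adjusted p = 0.853). HMOX1 had one of 0.40 in the 18 (permutation p = 0.0993, adjusted p = 0.248) and -0.02 in the 9 (exact permutation p = 0.982, adjusted p = 0.982). The edgeR fit within the 18 pools passed 3 members among 125 genes in all. These were SOD1 at 0.29 (edgeR adjusted p = 0.00172), PRDX6 at 0.11 (edgeR adjusted p = 0.0277) and MGST1 at 0.43 (edgeR adjusted p = 0.0354). HMOX1, at 0.43 (edgeR adjusted p = 0.0813), did not pass there.

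Other measures were set against interferon tau, of which X-linked abundance passed the test. The mean log2 abundance of genes on chromosome X had a rho of 0.55 with it (permutation p = 0.00411, adjusted p = 0.0164 over the 24 relations of this kind). Sperm markers, 1 of 3 retained and summing to 0 to 19.9 CPM, had a rho of 0.43 (adjusted p = 0.0543), with ODF1 at 0 in all 27 pools. Erythroid markers, 2 of 4 retained and summing to at most 20.8 CPM, had a rho of 0.40 (adjusted p = 0.0748), with HBA at 0 in 25 pools. Leukocyte markers, 9 of 12 retained and summing to 201 to 575 CPM, had a rho of 0.38 (adjusted p = 0.0897), most of their sum being CD48 at 188 to 530 CPM. Trophectoderm markers had a rho of 0.01, most of their sum being KRT8 and KRT18, at medians of 18607 and 7937 CPM. Summed hypoblast markers had a rho of -0.20 (permutation p = 0.318, adjusted p = 0.407) and r of -0.43 (permutation p = 0.0254), or -0.17 without the 2 farthest pools. The mean log2 abundance of hypoblast markers, the measure used in the fits, had a rho of -0.40, for which no p-value was computed. The part of these measures in the relations of members with interferon tau was not tested, apart from X-linked transcripts as a second covariate. With these SOD1 had a slope of 0.25 ± 0.05 (edgeR adjusted p = 0.0112) and PRDX6 one of 0.11 ± 0.03 (edgeR adjusted p = 0.0413), while MGST1 had one of 0.28 (edgeR adjusted p = 0.210) and HMOX1 one of 0.45 (edgeR adjusted p = 0.0860). Of the wider list, PGD and TKT, enzymes of the pentose phosphate pathway that supplies NADPH, fell with interferon tau, by 0.13 (edgeR adjusted p = 0.0252) and by 0.14 (edgeR adjusted p = 0.0354) on the log2 scale per unit.

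**Figure D4:**
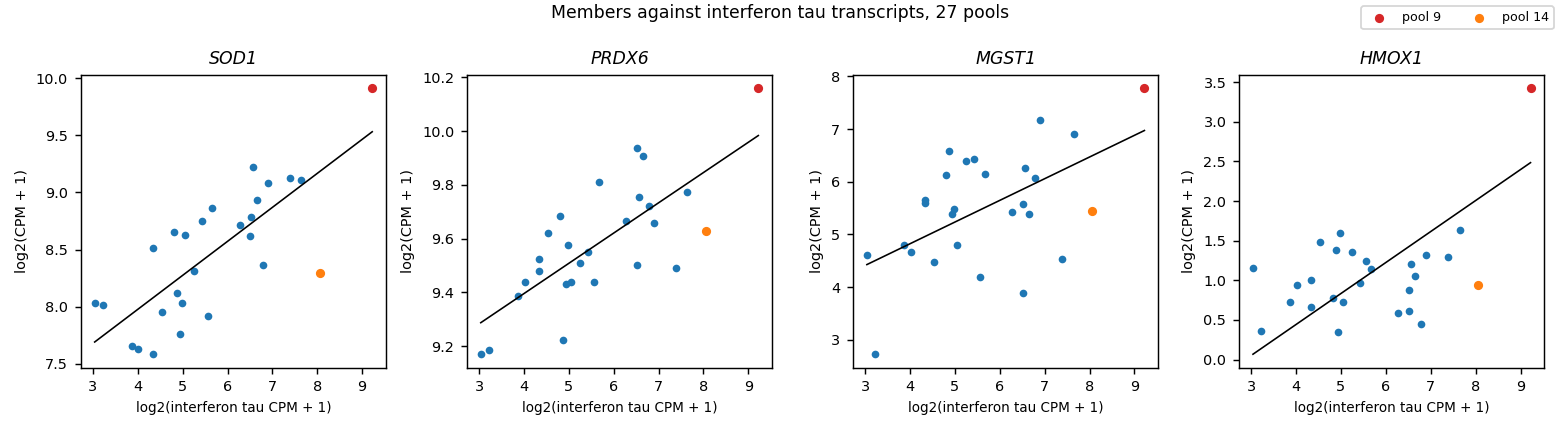
log2(CPM + 1) of the 4 members that passed the test against log2 of summed interferon tau CPM + 1, with 1 point per pool and a line of the edgeR slope through the means. Pool 9 is red and pool 14 orange. SOD1 and PRDX6 rise over the whole range, while HMOX1 rises mainly through pool 9.

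Slopes on epiblast and on hypoblast markers gave no member past the threshold with edgeR. On the mean of epiblast markers, 2 of 12304 genes passed, or 0.0163%, and 0 of 39 members with edgeR, while 5 members and 8.44% of all genes were at an unadjusted p under 0.05. MGST3 came nearest (edgeR adjusted p = 0.104) and passed with DESeq2, with a slope of 0.84 ± 0.18 (adjusted p = 0.00482), as 1 member among 39 genes in all. On the mean of hypoblast markers, 7 of 12305 genes passed, or 0.0569%, and 0 of 39 members with edgeR, while 7 members and 14.5% of all genes were at an unadjusted p under 0.05. PRDX6 had a slope of -0.38 ± 0.09 (edgeR adjusted p = 0.0720) and SOD1 one of -0.78 ± 0.20 (edgeR adjusted p = 0.0783). Both passed with DESeq2 (adjusted p = 0.0185 and 0.0345), as 2 members among 194 genes in all. Pool 9 was the lowest in this measure, at 3.22 against a median of 4.41, and the highest in both genes. Without pool 9, 0 genes passed with edgeR, and DESeq2 was not run without it.

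ATF4 is the transcription factor of the amino acid and unfolded protein stress response. On the mean of its targets, 16 of 12298 genes passed, or 0.13%, and 0 of 39 members with edgeR, while 3 members and 7.43% of all genes were at an unadjusted p under 0.05. GPX1 had a slope of -0.64 ± 0.16 (edgeR adjusted p = 0.140) and passed with DESeq2 (adjusted p = 0.00871), as 1 member among 45 genes in all. Outside the members, CHAC1, which degrades glutathione and is itself known as an ATF4 target, rose with a slope of 2.14 ± 0.38 (edgeR adjusted p = 0.00463). CHAC1 was at 0.107, 1.21 and 22.7 CPM. Pool 21 had the highest mean of ATF4 targets, at 6.24 against a median of 4.74. It also had the lowest GPX1, at 152 CPM, the next lowest value being 271 CPM. Without pools 21 and 45, the 2 farthest from the median, 0 genes passed with edgeR, so CHAC1 did not pass there. DESeq2 was not run without these pools. Library depth was tested in the same way, and on the total count 0 of 12310 genes passed, or 0.0%, with edgeR and with DESeq2, 340 genes and 0 members being at an unadjusted p under 0.05.

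One member, PRDX4, lies on chromosome X at 119515820 to 119531948 of ARS-UCD2.0. X-linked abundance was taken after these data had been seen, as the mean log2(CPM + 1) of 444 retained genes on chromosome X, without XIST and PRDX4. It was 3.17 in the lowest pool, 3.93 at the median and 4.56 in the highest, with an SD over pools of 0.407, against 0.0787 for the mean of 11746 autosomal genes. In the fit on this measure, 920 of 11865 genes passed, or 7.75%, and 5 of 39 members, or 12.8%. The other retained genes on chromosome X were left out of this fit, so PRDX4 was the only X-linked gene tested. Its positive slope on the mean of genes of its own chromosome could be foreseen. The share of members includes it, and the share of all genes has no other X-linked gene. PRDX4 had a slope of 0.98 ± 0.11 (SE, 27 pools, edgeR adjusted p = 1.09e-06). SOD1 had a slope of 0.91 ± 0.23 (edgeR adjusted p = 0.0118). MGST1 had a slope of 1.73 ± 0.45 (edgeR adjusted p = 0.0143). GPX8 had a slope of 1.78 ± 0.54 (edgeR adjusted p = 0.0384). PRDX5, in contrast, fell by 0.52 ± 0.11 on the log2 scale per unit (edgeR adjusted p = 0.00440). SOD1 lies on chromosome 1, MGST1 on 5, GPX8 on 20 and PRDX5 on 29, so none of these is itself X-linked.

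Within the 18 pools rich in Y-linked transcripts PRDX4 was the only member that passed, among 36 genes in all. Slopes there were 1.47 for SOD1 (edgeR adjusted p = 0.0524), 2.52 for MGST1 (edgeR adjusted p = 0.0903), 1.60 for GPX8 (edgeR adjusted p = 0.608) and -0.55 for PRDX5 (edgeR adjusted p = 0.332). These slopes were of like size to those over all pools or larger, and why they did not pass was not tested. With interferon tau as a second covariate PRDX4 and PRDX5 of the 5 passed, with MGST3, GPX4 and SOD2 in addition, among 592 genes in all. SOD1 then had a slope of 0.35 (edgeR adjusted p = 0.335) and MGST1 one of 1.104 (edgeR adjusted p = 0.134). With the mean of autosomal genes subtracted from the measure, all 5 passed. Without pool 28, GPX8 had a slope of 1.70 (edgeR adjusted p = 0.0634). Since the pools formed clusters in Y-linked transcripts, the rank correlations of members are given within these. In the 18 pools PRDX4 had a rho of 0.85 with X-linked transcripts (permutation p = 1e-05, the smallest that the resampling can give, adjusted p = 0.0002). PRDX6 had a rho of 0.75 there (permutation p = 0.00055, adjusted p = 0.0050). SOD1 had one of 0.66 (permutation p = 0.00367, adjusted p = 0.0147). MGST1 had one of 0.55 (permutation p = 0.0183, adjusted p = 0.0610). GPX8 had one of 0.37 (permutation p = 0.133, adjusted p = 0.266). PRDX5 had one of -0.49 (permutation p = 0.0399, adjusted p = 0.114). MGST1, GPX8 and PRDX5 thus did not pass there. PRDX6 did not pass in the fit over all pools, with a slope of 0.25 (edgeR adjusted p = 0.150). In the 9 pools poor in Y-linked transcripts PRDX4 had a rho of 0.10 (exact permutation p = 0.810, adjusted p = 0.853), MGST1 one of -0.43 (exact permutation p = 0.250, adjusted p = 0.417), and none of the 6 members computed passed.

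**Figure D5:**
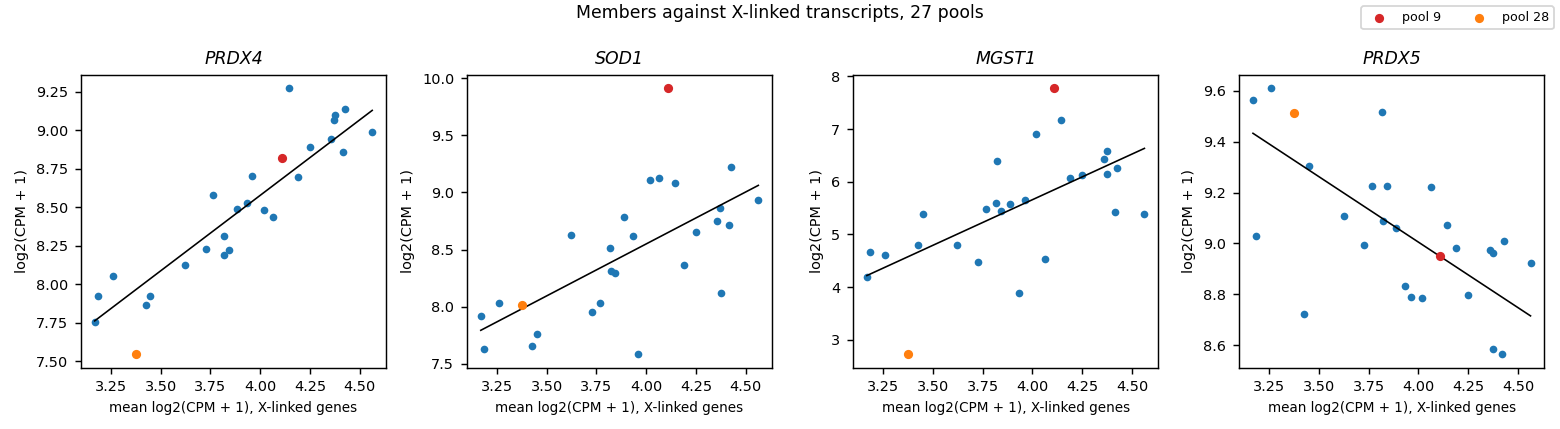
log2(CPM + 1) of PRDX4, SOD1, MGST1 and PRDX5 against the mean log2(CPM + 1) of X-linked genes, with 1 point per pool and a line of the edgeR slope through the means. Pool 9 is red and pool 28 orange. PRDX4 follows the line most closely and PRDX5 runs downward.

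Several measures moved with X-linked abundance too. CD48, counted among leukocyte markers, had a rho of 0.81 with it, but the other leukocyte markers together had one of 0.20 (permutation p = 0.322). Cumulus markers, 4 of 8 retained and summing to 10.5 to 43.8 CPM, had a rho of 0.52, with FOXL2 at 0 in 26 pools. Erythroid markers had a rho of 0.49 (adjusted p = 0.0277) and sperm markers one of 0.47 (adjusted p = 0.0346). Trophectoderm markers, mostly KRT8 and KRT18 by sum, had a rho of -0.58, the mean of autosomal genes 0.60, and the number of genes with a count 0.49. Their part in the slopes of members was not tested, beyond the subtraction of the autosomal mean. In the same fit 6 genes of the wider list fell and 0 rose, the 4 with the smallest adjusted p being PGD, MSRB3, SLC25A40 and TKT, at -0.55 (edgeR adjusted p = 0.000351), -1.51 (edgeR adjusted p = 0.0157), -0.59 (edgeR adjusted p = 0.0172) and -0.47 (edgeR adjusted p = 0.0277). SLC25A40 encodes a mitochondrial glutathione carrier and MSRB3 a methionine sulfoxide reductase.

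On XIST, the RNA that silences 1 X chromosome in female cells, 559 of 12309 genes passed, or 4.54%, and PRDX4 alone among 39 members, at 0.22 ± 0.03 (edgeR adjusted p = 0.000123). The rank correlations gave a like picture without any fit, as a description. Of the 50 retained genes with the highest rho to PRDX4, 43 lie on chromosome X, which holds 3.62% of retained genes. The median for retained genes that are themselves on chromosome X was 20 of 50. It was 27 for SOD1, 26 for MGST1, 26 for PRDX6, 19 for GPX8 and 16 for GSTA4. These 5 genes are the members outside chromosome X with at least 15, a limit set after the values were seen, out of 38. Among all retained genes outside chromosome X, 4.06% reached it, and the median was 1. For 11 of these 38 members there were 0, as for 49.2% of all retained genes outside chromosome X.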

How the data were processed

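RNA-sequencing reads on genes were counted in 27 pools. Per the labels and the study's methods, the authors made 3′ libraries with amplified cDNA, used fastp for trimming and STAR for mapping to ARS-UCD2.0, and deposited unfiltered raw counts. Versions, annotation release and strand setting are not given in the sources used here. CPM was calculated from total counts, and a gene was retained at 1 CPM or more in 12 or more pools. Slopes were fitted on all retained genes with edgeR 4.0.16 (quasi-likelihood, TMM, R 4.3.3) with Benjamini-Hochberg adjustment at 0.05. On simulated data for the interferon tau slope, 187 of 200 changed genes were recovered with 12 false calls among 12310 genes. The changed genes were given a slope of 1 log2 unit per SD of the measure, up or down. Smaller slopes were not simulated. DESeq2 1.42.0, RLE normalization, no filter and omission of pools were alternatives. Correlations used log2(CPM + 1) and 100000 two-sided permutations, or all orders with 9 pools. Genes used in a measure were left out of its fit. Positions came from RefSeq. Members and lists were chosen with earlier results of these data known, as were the X-linked and Y-linked measures. Members named were the 5 most abundant, the 5 highest and 5 lowest against the dispersion trend, the NRF2 pair, the alpha and mu transferases and those passing a fit, and others were named after their values were seen. Every pair of pools differed beyond sampling noise. Pools are not known to be independent of fertilization replicate, and no replicate term was fitted. The p-values treat the pools as independent samples and may be too small if pools of the same replicate are alike.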

Additional observations from a re-analysis of the deposited data

How the results depend on the processing

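No paired analysis was possible because the labels give no groups and no replicate numbers. The count of members passing the threshold changed as follows, with the count over all genes in brackets. With DESeq2 it was 1 for NFE2L2 (307), 1 for epiblast markers (39), 2 for hypoblast markers (194), 1 for ATF4 targets (45) and 2 for XIST (821). Without a filter on low counts it was 1, 2 and 1 for epiblast, hypoblast and ATF4 measures (481, 620 and 410). Without the 2 pools farthest from the median it was 1 for interferon tau (95) and 2 for X-linked transcripts (411). Without pool 9 it was 1 for interferon tau (41) and 2 for XIST (615). Within the pools rich in Y-linked transcripts it was 1 for X-linked transcripts (36). Against a lowess trend of the squared coefficient of variation, 30 of 39 members lay above the trend, and 49.4% of all genes did. The other 52 recomputed counts of members were within 1.5 times the reported ones.

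Counts over all genes moved more. For NFE2L2 they were 307 with DESeq2, 715 without a filter, 13 without pool 9, 8 without pool 28 and 0 without pools 31 and 28. For interferon tau they were 514 with DESeq2, 918 without a filter, 95 without pools 9 and 14, 41 without pool 9, 55 beside X-linked transcripts and 125 within the 18 pools. Without a filter they were 547 for TXNRD1, 481 for epiblast markers, 620 for hypoblast markers, 410 for ATF4 targets, 561 for total count, 2045 for X-linked transcripts and 1423 for XIST. With DESeq2 they were 39, 194 and 45 for the epiblast, hypoblast and ATF4 measures. Without the 2 farthest pools they were 0 for TXNRD1, epiblast, hypoblast and ATF4 measures, 411 for X-linked transcripts and 358 for XIST. Without pool 9 they were 1 for epiblast and 0 for hypoblast markers. For X-linked transcripts they were 592 beside interferon tau and 36 within the 18 pools. The cause of these shifts was not tested. The 10 slopes of members that passed kept their sign in each of these settings, and other slopes named were not counted in this. Depth limits HMOX1, GPX8, GSTA1 and GSTA2, whose lowest pools held 0 to 3 counts.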
